A study of Mus musculus with 2 samples.

Results

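A set of 40 genes of mitosis and the G2/M transition were followed in mouse CD4+ T cells: cyclins and kinases that drive entry into mitosis, and genes of the kinetochore, the spindle, its checkpoint and cytokinesis. They were named by symbol and matched to the deposited expression table through their Entrez identifiers, and all 40 were found among its 13056 annotated genes. The rule that names them uses symbols and no measured value, but the genes were listed with earlier results of these data known. The T cells came from wild type C57BL/6 mice aged 6 to 8 weeks and spent 48 h in culture with the signals for T helper 17 (Th17) differentiation. In 1 culture the antigen presenting cells (APCs) were wild type (the WT-APC library), and in the other they carried a transgene for OX40L (the OX40L-TG-APC library), which binds the costimulatory receptor OX40 on T cells. The promoter of the transgene, the kind of APC and whether animals were pooled are not given in the sources used here. Each library was made from 1 µg of total RNA.

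There was 1 library per condition, so no difference has a replicate check, no test between conditions was possible, and every statement compares these 2 libraries. Values are FPKM (fragments per kilobase of transcript, scaled to library size), so levels of different genes can be set side by side per length. Estimated from the values themselves, the WT-APC library held 24400000 fragments and the OX40L-TG-APC library 27900000, and between 549 and 50436 estimated fragments lay behind each value of a mitosis gene. A ratio is the OX40L-TG-APC FPKM over the WT-APC FPKM, and its bracketed range is a 95% exact Clopper-Pearson interval for counting error only. A log2 change is the log2 of that ratio after 1 FPKM was added to both values.

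As background, a T cell that has been activated divides repeatedly, and its mitosis genes are transcribed mainly from late S phase to mitosis. CDK1 with cyclin B starts mitosis. Aurora and Polo-like kinases build the spindle, kinetochores tie chromosomes to it, the spindle checkpoint holds back the anaphase promoting complex until all are attached, and CDC20 then turns that complex on. Many of these genes share a promoter design in which a cell cycle genes homology region (CHR) lies a short way downstream of CCAAT boxes bound by NF-Y. The CHR is bound by complexes that hold the MuvB core, either with B-MYB and FOXM1 or as the repressor complex DREAM. In bulk RNA, more dividing cells and more of these transcripts per dividing cell cannot be told apart.

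Promoter windows from RefSeq (GRCm38.p6, 250 bases before to 50 after the annotated start) were available for 33 of the 40 genes, in 35 windows. Stretches of 10 genes are shown so that the shared letters, or their absence, can be seen: 7 with a CHR before the start, Aurka and Nusap1 with the highest ratios, and Nuf2 with the lowest. Each sequence is the 120 bases that end just before the start, 5′ to 3′ in the direction of transcription. Capitals mark the CHR (TTTGAA, which reads TTCAAA on the other strand, or else TTTAAA, which reads the same on both) and the CCAAT box (ATTGG on the other strand).
Ccnb1, chr13:100786487-100786606, minus strand: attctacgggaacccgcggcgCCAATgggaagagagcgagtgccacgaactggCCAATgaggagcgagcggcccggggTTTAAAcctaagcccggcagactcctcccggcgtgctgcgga
Cdk1, chr10:69352913-69353032, minus strand: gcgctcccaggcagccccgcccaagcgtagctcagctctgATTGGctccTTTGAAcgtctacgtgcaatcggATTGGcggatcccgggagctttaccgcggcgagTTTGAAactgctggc
Cdc20, chr4:118437344-118437463, minus strand: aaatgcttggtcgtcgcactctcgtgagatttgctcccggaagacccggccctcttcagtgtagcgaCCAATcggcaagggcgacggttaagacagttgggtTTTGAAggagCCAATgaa
Ube2c, chr2:164769809-164769928, plus strand: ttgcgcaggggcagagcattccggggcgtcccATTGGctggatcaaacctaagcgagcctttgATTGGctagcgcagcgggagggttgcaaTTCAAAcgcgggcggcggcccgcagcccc
Top2a, chr11:99024190-99024309, minus strand: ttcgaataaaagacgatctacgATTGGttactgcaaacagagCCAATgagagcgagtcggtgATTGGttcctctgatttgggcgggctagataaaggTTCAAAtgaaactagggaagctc
Kif11, chr19:37376262-37376381, plus strand: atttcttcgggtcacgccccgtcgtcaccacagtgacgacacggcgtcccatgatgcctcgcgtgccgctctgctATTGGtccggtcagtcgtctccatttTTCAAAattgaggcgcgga
Espl1, chr15:102296173-102296292, plus strand: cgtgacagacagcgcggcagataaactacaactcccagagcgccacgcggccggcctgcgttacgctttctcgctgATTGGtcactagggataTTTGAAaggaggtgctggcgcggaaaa
Aurka, chr2:172370571-172370690, minus strand: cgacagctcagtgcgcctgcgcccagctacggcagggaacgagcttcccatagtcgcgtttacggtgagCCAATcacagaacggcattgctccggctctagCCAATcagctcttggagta
Nusap1, chr2:119618178-119618297, plus strand: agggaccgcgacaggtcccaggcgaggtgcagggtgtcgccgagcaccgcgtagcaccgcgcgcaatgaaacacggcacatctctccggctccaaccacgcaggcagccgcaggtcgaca
Nuf2, chr1:169531465-169531584, minus strand: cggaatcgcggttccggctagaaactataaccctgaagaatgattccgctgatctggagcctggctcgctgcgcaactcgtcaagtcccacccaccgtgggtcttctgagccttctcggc

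In Ccnb1 the CHR began 42 bases before the start, with CCAAT boxes beginning 99 and 67 bases before it, and the first of these overlapped an E2F motif. Cdk1 held 2 CHR motifs in the printed stretch, and Top2a 1 CHR with 3 CCAAT boxes. Aurka held 2 CCAAT boxes before the start and its 2 CHR motifs after it, outside the printed stretch. In other genes too, among them Anln, Kif4 and Racgap1, the CHR lay only after the start. The printed stretches therefore do not show how often a CHR lies before it. Nusap1 and Nuf2 held neither motif in the whole window, which says only that these letters are not in it.

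Both motifs were searched on both strands of all windows, and a gene counted when any of its windows held one. The CHR was found in 28 of the 33 genes (84.8%), against 22.1% of 8587 genes of at least 1 FPKM and 30.6% of all 27025 genes of the table. It lay wholly within 50 bases of the start in 24 of the 33 (72.7%), against 6.00% of the expressed genes. CCAAT was found in 25 (75.8%, against 43.7%), and both motifs together in 23 (69.7%, against 9.27%). The E2F core (TTGGCGC, or its variants TTCGCGC and also TTCCCGC), typical of DNA replication genes, was found in 5 of the 33 (15.2%, against 17.8%). In a list of DNA replication and G1/S genes it was found in 17 of 29 (58.6%), where the CHR was in 9 (31.0%). Among other mitotic genes with a window, the CHR was in 47 of 95 (49.5%) and both CHR and CCAAT were in 34 (35.8%). The SP1 box GGGCGG was found in 27 of the 33 genes (81.8%, against 70.4%). A match is a description of letters, not a bound site. The motif did not sort the 33 genes by their change: the median log2 change was 0.32 for the 28 with a CHR and 0.32 for the 5 without, and the range without it (0.11 to 0.56) enclosed the range with it (0.18 to 0.52).

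**Figure D1:**
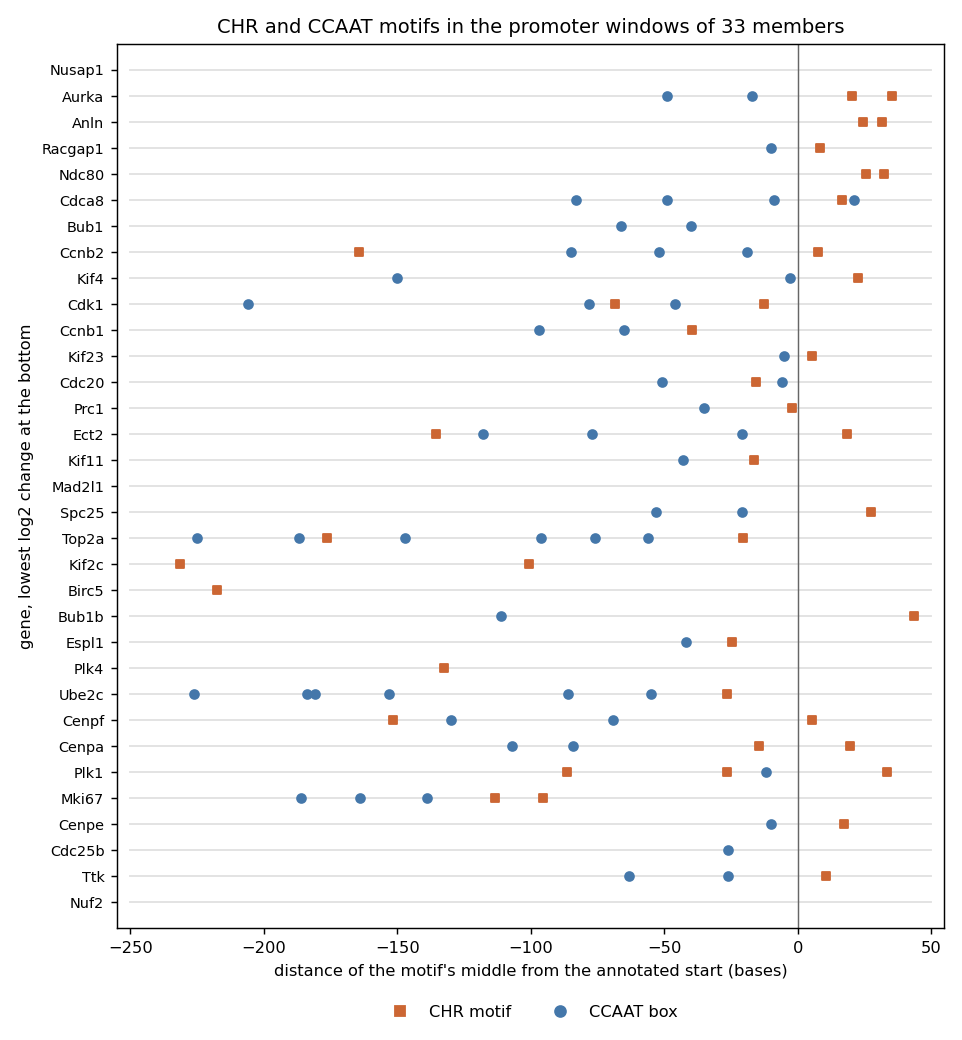
Positions of CHR motifs (squares) and CCAAT boxes (circles) in the promoter windows of 33 mitosis genes; the x axis is the distance in bases of the motif's middle from the annotated start, and genes run from the lowest log2 change at the bottom to the highest at the top. For Ect2 and Prc1, which have 2 windows, 1 window is drawn. Motifs gather around the start in genes at both ends of the order, and Nusap1, Mad2l1 and Nuf2 have none.

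Mitosis genes were slightly and broadly higher in the OX40L-TG-APC library. All 40 stood at a higher FPKM there, with ratios from 1.08 to 1.48 and a median log2 change of 0.31, although 39 were higher with the median ratio of well-expressed genes set to 1, 38 with equal totals and 29 with the median ratio of the reference genes set to 1. Among 10645 annotated genes of at least 1 FPKM, 68.3% were higher and the median log2 change was 0.11. None of the 40 reached 2-fold in either direction on the log2(FPKM + 1) scale, against 2.26% of these genes for higher and 1.32% for lower. At least 25% higher on that scale were 18 of the 40 (45%), against 21.5% of all genes, and none was lower by the same fold, against 7.14%. That count was 4 with the median ratio set to 1, 2 with equal totals and 0 with the median ratio of the reference genes set to 1. The counting interval lay above 1 for all 40, against 49.5% of the 10361 genes with a known transcript length, and below 1 for none, against 17.3%. Above the median of all genes stood 39 of the 40, against 50.0% of all genes. The exception was Nuf2.

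Every mitosis gene stood at over 10 FPKM in both libraries, so the same shares were also taken over the 6602 genes that reached 10 FPKM in either. Their median log2 change was 0.13, 72.3% of them were higher, 20.5% were at least 25% higher and 5.23% were lower by that fold, while 1.98% were 2-fold higher and 1.01% were 2-fold lower. Above the median of all genes stood 52.7% of them, and the counting interval lay above 1 for 56.9% and below 1 for 16.9% of the 6501 with a known length. The authors' deposited table of 398 genes, which holds none with an absolute log2 ratio under 1.00 or a p-value above 0.0499, lists none of the 40. Over all annotated genes, 241 were at least 2-fold higher and 141 lower. With the median ratio of genes over 5 FPKM set to 1 these counts were 193 and 173, and with equal totals 168 and 187. Those scalings divide the OX40L-TG-APC values by 1.09 and 1.13.

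**Figure D2:**
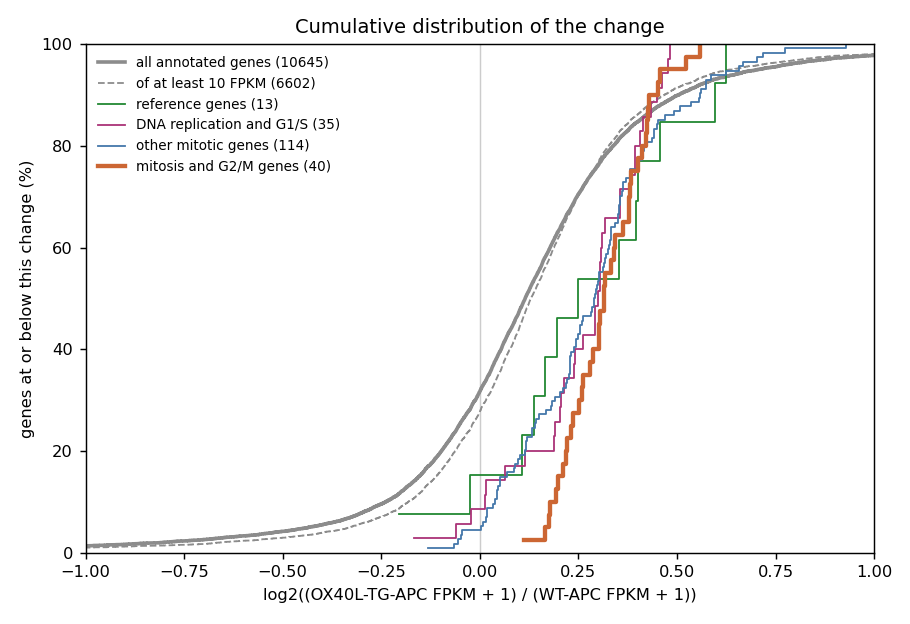
Cumulative share of genes (y axis, percent) at or below each log2 change (x axis, pseudocount 1 FPKM) for the 40 mitosis genes, other mitotic genes, DNA replication and G1/S genes, reference genes and all annotated genes. The curve of the 40 runs from 0.11 to 0.56, right of the curve of all genes over its lower part. With the median ratio of genes over 5 FPKM set to 1 it would start at -0.0070.

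The 40 genes spanned a 23.4-fold range of FPKM in the WT-APC library and a 24.5-fold range in the OX40L-TG-APC library. Their summed level was 2275 FPKM with WT APCs and 2851 FPKM with OX40L-TG APCs, a ratio of 1.253. That was 0.436% and 0.482% of the summed FPKM of all annotated genes. The order of the genes was nearly the same in both libraries: 19 of the 40 held the same rank, 3 moved by more than 2 places, and the largest move, of Aurka, was from rank 18 to rank 13. Nuf2 moved from 28 to 31 and Kif20a from 13 to 16. Across the 40 genes, which share both libraries, log2 change and log2 mean FPKM had a Pearson correlation of 0.17, and change and mean FPKM a Spearman correlation of 0.18, given as a description.

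**Figure D3:**
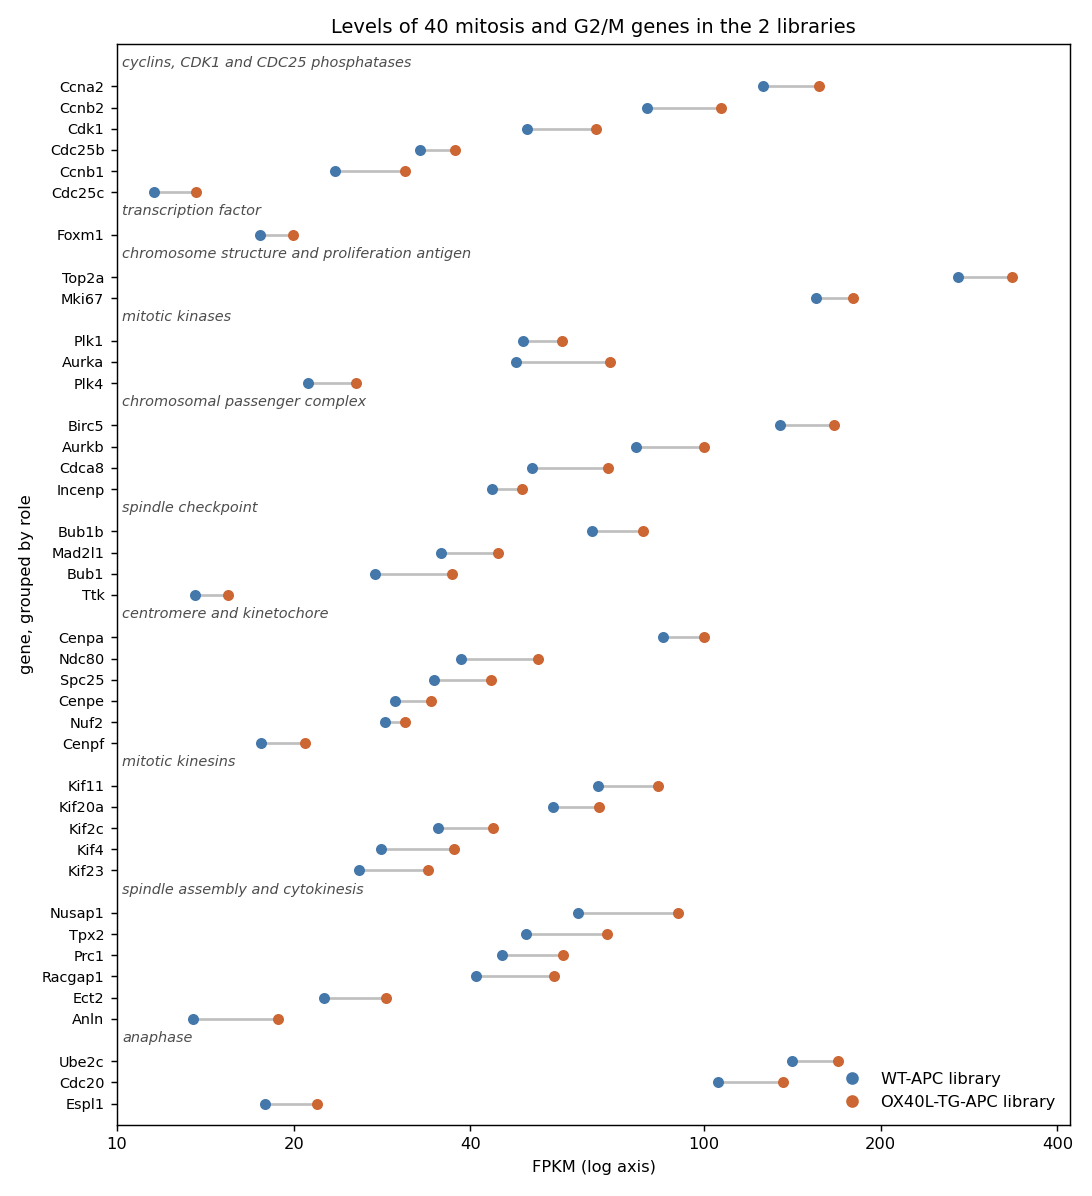
FPKM (log x axis) of each of the 40 genes, grouped by role, in the WT-APC library (blue) and the OX40L-TG-APC library (orange). In each gene the orange point lies right of the blue one, from Cdc25c at 11.6 and 13.6 FPKM to Top2a at 271 and 335 FPKM; for Nuf2 this order turns when the median ratio of genes over 5 FPKM is set to 1, for Nuf2 and Incenp with equal totals, and for 11 genes with that of the reference genes set to 1.

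The 2 genes of chromosome structure and proliferation were the most abundant. Top2a, which encodes the DNA topoisomerase that untangles sister chromatids, stood at 271 FPKM with WT APCs and 335 FPKM with OX40L-TG APCs, a ratio of 1.24 (1.22 to 1.252) and a log2 change of 0.30. Mki67 encodes Ki-67, the protein that coats mitotic chromosomes and serves as the standard marker of cycling cells. It stood at 155 and 180 FPKM, at a ratio of 1.16 (1.14 to 1.17) and a log2 change of 0.21. Their counting intervals did not overlap, so that the 2 most abundant genes differed from each other in ratio by more than counting error.

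Among the genes that start mitosis, the cyclins and Cdk1 stood above the CDC25 phosphatases in ratio. Ccna2, the gene of the S and G2 phase cyclin A2, stood at 126 FPKM with WT APCs and 157 FPKM with OX40L-TG APCs, a ratio of 1.245 (1.21 to 1.28) and a log2 change of 0.31. The locus printed for it also holds Exosc9. For the mitotic cyclin genes, Ccnb1 stood at 23.5 and 30.9 FPKM, and Ccnb2 at 80.0 and 107 FPKM. Ccnb2 was 3.40 times the level of Ccnb1 in the WT-APC library and 3.45 times in the OX40L-TG-APC library. Cdk1, the kinase gene that both cyclins serve, stood at 50.0 FPKM and 65.5 FPKM, and Ccnb1 was 0.471 and 0.472 times its level. The 3 genes thus kept their proportions, with ratios of 1.31 for Ccnb1, 1.33 for Ccnb2 and 1.31 for Cdk1. Cdc25b, which encodes a phosphatase that activates CDK1, stood at 32.8 and 37.6 FPKM, at a ratio of 1.15 (1.09 to 1.21) and a log2 change of 0.19. Cdc25c, another such phosphatase gene, was the lowest of the 40 in both libraries, at 11.6 and 13.6 FPKM, and its interval was the widest (1.05 to 1.32).

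Foxm1 encodes the transcription factor that drives many G2/M genes. It stood at 17.5 FPKM with WT APCs and 19.97 FPKM with OX40L-TG APCs, a ratio of 1.14 (1.07 to 1.21) and a log2 change of 0.18. It was thus among the 5 genes with the smallest changes, and with the median ratio set to 1 its interval (0.987 to 1.11) included 1. The printed locus holds Tex52 as well.

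The mitotic kinase genes differed among themselves. Aurka (Entrez 20878, GRCm38 chromosome 2, 172356196 to 172370506), which encodes the Aurora kinase of centrosomes and spindle poles, had the second highest change of the 40. It stood at 47.8 FPKM with WT APCs and 69.1 FPKM with OX40L-TG APCs, a ratio of 1.44 (1.37 to 1.52) and a log2 change of 0.52. Plk1, the Polo-like kinase gene that acts at many steps of mitosis, stood at 49.1 and 57.3 FPKM, at a ratio of 1.17 (1.11 to 1.23). Plk1 was above Aurka in the WT-APC library and below it in the OX40L-TG-APC library, and the intervals of their ratios did not overlap. Plk4, which encodes the kinase that starts centriole duplication, stood at 21.1 and 25.5 FPKM.

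The chromosomal passenger complex joins Aurora B with survivin, borealin and INCENP at centromeres and later at the midzone. Birc5, the survivin gene, stood at 135 FPKM with WT APCs and 167 FPKM with OX40L-TG APCs, a ratio of 1.24 (1.20 to 1.27) and a log2 change of 0.30. Aurkb, the gene of the kinase itself, stood at 76.6 and 99.9 FPKM, at a ratio of 1.30. Cdca8, the borealin gene, stood at 50.9 and 68.7 FPKM, at a ratio of 1.35 (1.27 to 1.43). Incenp, the scaffold gene, had the second lowest change of the 40, at 43.5 and 48.9 FPKM, at a ratio of 1.12 (1.07 to 1.18) and a log2 change of 0.17. The intervals of Incenp did not overlap those of the other 3 genes of the complex. The level of Aurkb was 1.76 times that of Incenp in the WT-APC library and 2.04 times in the OX40L-TG-APC library. The log2 change of Incenp was -0.010 with equal totals.

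Among the spindle checkpoint genes, Bub1 stood highest in ratio. Bub1, a kinase gene whose product brings checkpoint proteins to kinetochores, stood at 27.5 FPKM with WT APCs and 37.2 FPKM with OX40L-TG APCs, a ratio of 1.35 (1.28 to 1.43). Bub1b, which encodes the BUBR1 component of the inhibitor of CDC20, stood at 64.4 and 78.9 FPKM, at a ratio of 1.22 (1.18 to 1.27), and the intervals of these 2 relatives did not overlap. Mad2l1, which encodes MAD2, the protein that binds CDC20 when kinetochores are unattached, stood at 35.6 and 44.5 FPKM. Ttk, the gene of the checkpoint kinase MPS1, stood at 13.6 and 15.5 FPKM, at a ratio of 1.14 (1.05 to 1.24) and a log2 change of 0.18, and with the median ratio set to 1 its interval (0.961 to 1.14) included 1.

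The 6 centromere and kinetochore genes had the lowest summed ratio of the groups of at least 2 genes, 1.203, with a median log2 change of 0.23. The 32 further kinetochore and centromere genes outside the 40 did not share this, with a summed ratio of 1.252 and a median of 0.31. Cenpa, which encodes the histone H3 variant of centromeres, stood at 85.0 FPKM with WT APCs and 100.04 FPKM with OX40L-TG APCs. Cenpe, the gene of a kinetochore motor, stood at 29.8 and 34.3 FPKM, and Cenpf, which encodes a large kinetochore protein, at 17.6 and 20.9 FPKM. The NDC80 complex, the direct link to microtubules, was represented by 3 genes that did not keep their proportions. Ndc80 stood at 38.6 and 52.2 FPKM, at a ratio of 1.35 (1.28 to 1.43), at a locus that also holds Spdya. Its partner Nuf2 (Entrez 66977, GRCm38 chromosome 1, 169497934 to 169531464) had the lowest change of the 40, at 28.6 and 30.99 FPKM, at a ratio of 1.08 (1.01 to 1.16) and a log2 change of 0.11. Spc25 stood between them in ratio, at 34.7 and 43.4 FPKM. The level of Ndc80 was thus 1.35 times that of Nuf2 with WT APCs and 1.68 times with OX40L-TG APCs.

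The 5 kinesin genes had ratios from 1.19 to 1.33 and a median log2 change of 0.33. The interval of the lowest, Kif20a (1.15 to 1.24), did not overlap that of the highest, Kif4. Kif11, which encodes the motor that pushes spindle poles apart, stood at 66.0 FPKM with WT APCs and 83.4 FPKM with OX40L-TG APCs. Kif4, a chromosome arm motor gene, had the highest ratio of the 5, 1.33 (1.27 to 1.39), at 28.1 and 37.5 FPKM. Kif23, whose product is the motor of centralspindlin in the midzone, stood at 25.9 and 33.9 FPKM, and Kif2c, which encodes a microtubule depolymerase of centromeres, at 35.2 and 43.7 FPKM. Kif20a, the gene of a cytokinesis motor, stood at 55.4 and 66.1 FPKM. The printed loci of Kif23, Kif2c and Kif20a hold 2, 9 and 2 other coding genes.

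Genes of spindle assembly and cytokinesis had the highest changes of the role groups. All 6 were at least 25% higher, against 21.5% of all genes, with a median log2 change of 0.44 and a summed ratio of 1.37. With the median ratio of well-expressed genes set to 1 their scaled ratios ran from 1.17 to 1.36. The ranking depends on how the groups were drawn: the cytokinesis motor gene Kif20a, at a ratio of 1.19, and Kif23, at 1.31, were counted with the kinesins. Nusap1 (Entrez 108907, GRCm38 chromosome 2, 119609532 to 119650160), which encodes a protein that bundles spindle microtubules around chromosomes, had the highest change of the 40. It stood at 61.0 FPKM with WT APCs and 90.4 FPKM with OX40L-TG APCs, a ratio of 1.48 (1.43 to 1.53) and a log2 change of 0.56. The locus printed for it also holds Oip5. Tpx2, whose product activates Aurora A on the spindle, stood at 49.7 and 68.3 FPKM, at a ratio of 1.37 (1.33 to 1.42) and a log2 change of 0.45. The levels of Aurka and Tpx2 were close to each other in both libraries, at 0.963 and 1.01 Aurka per Tpx2.

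The other 4 genes of that group act in cytokinesis and had ratios from 1.28 to 1.40. Anln, which encodes anillin, the scaffold of the contractile ring, stood at 13.4 FPKM with WT APCs and 18.8 FPKM with OX40L-TG APCs, a ratio of 1.40 (1.31 to 1.49) and a log2 change of 0.46. Racgap1, which encodes the partner of KIF23 in centralspindlin, stood at 40.9 and 55.4 FPKM, at a ratio of 1.35 (1.29 to 1.42) and a log2 change of 0.43. Kif23 was 0.632 times its level in the WT-APC library and 0.612 times in the OX40L-TG-APC library. Ect2, whose product activates RhoA at the cleavage site, stood at 22.5 and 28.7 FPKM. Prc1, the gene of the midzone crosslinker, stood at 45.2 and 57.6 FPKM.

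The 3 genes of anaphase stood near the middle of the 40. Cdc20, which encodes the activator of the anaphase promoting complex, stood at 106 FPKM with WT APCs and 136 FPKM with OX40L-TG APCs, a ratio of 1.29, at a locus that also holds Elovl1. It was 2.97 times the level of Mad2l1, which encodes its inhibitor, in the WT-APC library and 3.06 times in the OX40L-TG-APC library. Ube2c, the ubiquitin-conjugating enzyme gene of the complex, stood at 141 and 169 FPKM, at a ratio of 1.20 (1.15 to 1.253) and a log2 change of 0.26. Espl1, the gene of separase, which cuts cohesin, stood at 17.9 and 21.9 FPKM.

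**Figure D4:**
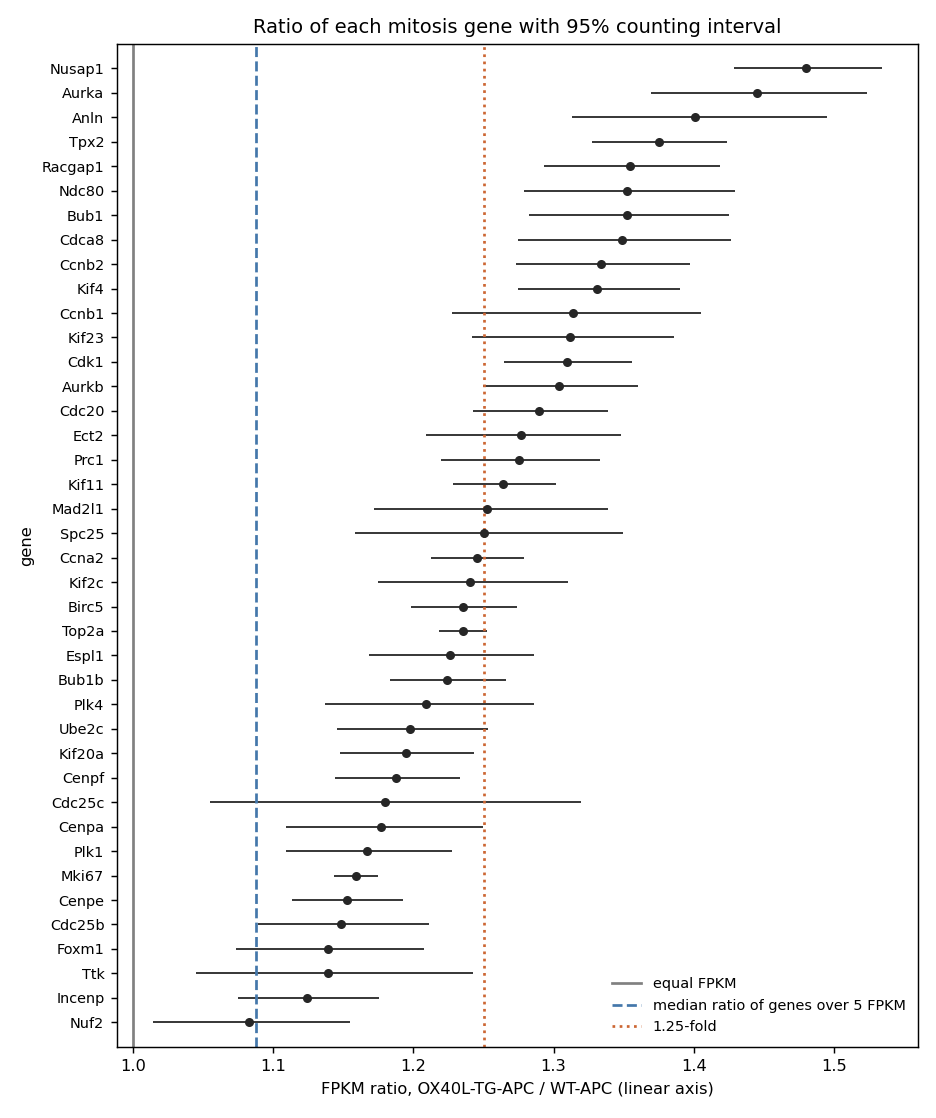
FPKM ratio (linear x axis) of each of the 40 genes with its 95% counting interval, sorted; lines mark a ratio of 1, the median ratio of 1.09 of genes over 5 FPKM in both libraries, and a 25% higher value. The intervals of 11 genes lie wholly above the 25% line and those of 11 wholly below it, from Nusap1 at 1.48 down to Nuf2 at 1.08, the only gene under the median line.

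The ratios of the 40 genes were therefore not all alike within counting error. The intervals of 11 genes lay wholly above a 25% higher value, those of 11 wholly below, and 18 spanned it. With the median ratio of genes over 5 FPKM set to 1, 35 intervals lay above 1, 5 included 1 and none lay below. The 5 were those of Nuf2, Incenp, Ttk, Foxm1 and Cdc25c. Other RefSeq genes overlapped the printed locus of 19 members, coding ones in 11, and reads of overlapping genes could be split between them in counting. Among the 21 members alone in their locus, all were higher, against 68.3% of all genes, and 7 were at least 25% higher, against 21.5%. Their ratios ran from 1.08 to 1.44 and their median log2 change was 0.29.

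**Figure D5:**
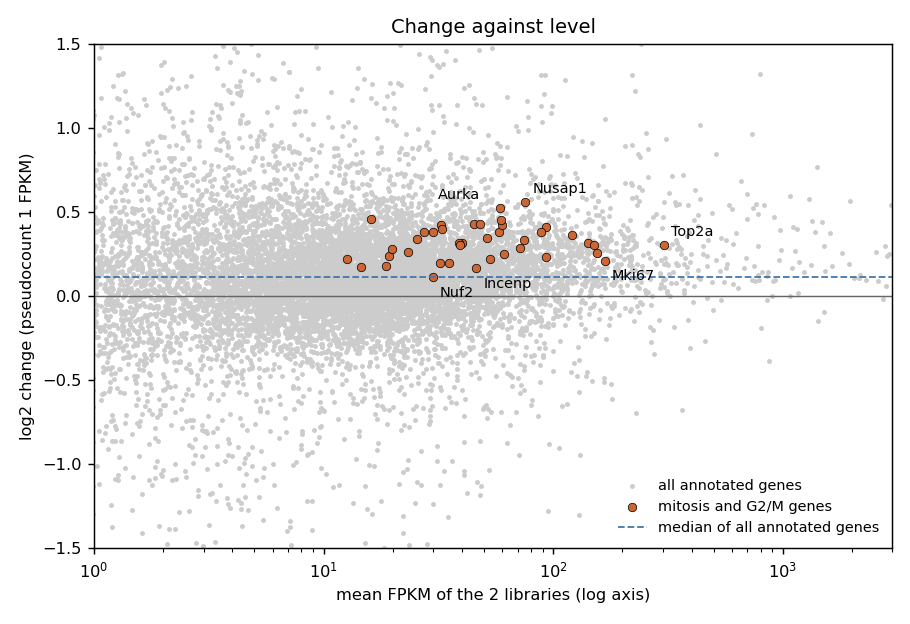
Log2 change (y axis, pseudocount 1 FPKM) against mean FPKM of the 2 libraries (log x axis) for all annotated genes (grey) and the 40 mitosis genes (orange); the dashed line is the median of all annotated genes, 0.11, and genes beyond the axis limits are not drawn. The 40 lie in a narrow band between 0.11 and 0.56 at mean levels of over 10 FPKM, within the spread of genes of like level, and Nuf2 would lie at -0.0070 with the median ratio of genes over 5 FPKM set to 1.

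Other genes of mitosis that are not among the 40 stood higher too, with wider spread. Of 114 such genes, all at 1 FPKM or more, 109 were higher and 47 were at least 25% higher, against 68.3% and 21.5% of all genes. None was lower by that fold, against 7.14%, and none reached 2-fold, against 2.26% for higher and 1.32% for lower. All counts are on the log2(FPKM + 1) scale, and the median log2 change of the 114 was 0.29. With the median ratio of genes over 5 FPKM set to 1, 92 of the 114 were higher, and with equal totals 83. With the median ratio of the reference genes set to 1, 69 were higher. The median log2 change of all genes under these 3 scalings was 0.0045, -0.048 and -0.11. All 8 condensin genes, whose products compact chromosomes, were higher, with a summed ratio of 1.26, and 6 were with the median ratio of the reference genes set to 1. For 12 genes of cohesin and its regulators the summed ratio was 1.18, for 14 of the anaphase promoting complex 1.23, and for 32 further kinetochore and centromere genes 1.252. The highest of the 114 was Psrc1, which encodes a microtubule-associated spindle protein (9.01 to 18.1 FPKM, WT-APC to OX40L-TG-APC, a plain ratio of 2.004 and a log2 change of 0.93), followed by Iqgap3 (6.58 to 11.96 FPKM) and the kinase gene Melk (18.7 to 31.5 FPKM). The lowest were Anapc1 (37.4 to 34.1 FPKM) and Anapc10 (3.10 to 2.92 FPKM), subunit genes of the anaphase promoting complex, and the spindle pole gene Numa1 (52.8 to 50.7 FPKM).

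Beside the lists that follow, 68.3% of all genes were higher, 21.5% were at least 25% higher and 7.14% were lower by that fold. The DNA replication and G1/S list held 35 genes, of which 32 were higher, 12 were at least 25% higher and none was lower by that fold. Their median log2 change was 0.30 and their summed ratio 1.19, and 28, 28 and 21 were higher under the same 3 scalings. Of 12 genes of CDK inhibitors, D cyclins with their kinases and pocket proteins, which hold back or release G1, 10 were higher and 5 were at least 25% higher, while 7, 6 and 5 were higher under the 3 scalings. Their log2 changes ran from -0.27 to 1.92 with a median of 0.17. The only one at 2-fold was Cdkn1a, which encodes the CDK inhibitor p21 and is named here after its values were seen, at 11.1 FPKM with WT APCs and 44.8 FPKM with OX40L-TG APCs. Ccnd3, the cyclin D3 gene, also named after its values were seen, followed at 83.3 and 161 FPKM. Reference genes, used to compare levels between samples, stood higher as well. Of 13 of them 11 were higher (10 with the median ratio of genes over 5 FPKM set to 1 and 8 with equal totals) and 6 were at least 25% higher, with a median log2 change of 0.25 and a summed ratio of 1.23, against 0.31 and 1.253 for the 40 mitosis genes. With the median ratio of the reference genes, 1.19, set to 1, the median log2 change of the 40 was 0.069. None of them was then 25% higher, against 8.70% of all genes, and 11 of the 40 were lower. No test of the difference between these lists was possible.

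Markers of the cells in the cultures were read beside these values. The 12 T cell markers in the table, among them Cd3e, Cd4 and Lck, summed to 2574 FPKM with WT APCs and 2776 FPKM with OX40L-TG APCs and had a median log2 change of 0.06. All 11 B cell markers in the table were lower, with sums of 68.3 and 27.5 FPKM and a median log2 change of -1.13, and none was at 0. The 7 MHC class II genes summed to 376 and 255 FPKM, with a median log2 change of -0.94. Of these, 4 were lower by the 25% fold and 2 were higher, H2-DMa (15.4 to 23.7 FPKM) and H2-Ab1 (92.7 to 98.9 FPKM). Of 10 myeloid markers 6 reached 1 FPKM, with sums of 74.3 and 69.5 FPKM, of which Ctss made up most (61.5 and 63.7 FPKM). The median log2 change of these 6 was -0.57. Lyz2 (4.55 to 1.01 FPKM), Tyrobp (2.87 to 0.827 FPKM), Mpeg1 (1.58 to 0.413 FPKM) and Fcer1g (1.51 to 1.08 FPKM) were lower. The 2 higher were Ctss and Cd68 (2.25 to 2.44 FPKM). Under 1 FPKM, Csf1r, Itgam, Cd14 and Adgre1 were lower. Of 8 dendritic cell markers 2 reached 1 FPKM and went opposite ways, Flt3 (3.46 to 1.09 FPKM) and Batf3 (2.18 to 21.5 FPKM). Under 1 FPKM, Itgax (0.404 to 0.112 FPKM) and Xcr1 (0.0620 to 0.0155 FPKM) were lower and Zbtb46 (0.788 to 0.934 FPKM) was higher. Clec9a and Siglech were listed at 0 in the OX40L-TG-APC library and Cd209a in the WT-APC library. Of the CD8 T and NK cell markers 3 of 6 reached 1 FPKM, with sums of 10.6 and 12.1 FPKM, and the 2 haemoglobin genes kept summed to 33.5 and 69.1 FPKM. The part of these differences in the mitosis gene values was not tested.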

How the data were processed

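RNA-seq of 1 WT-APC and 1 OX40L-TG-APC library was used. The authors deposited FPKM values per gene, for which the submitters' processing notes name TopHat2, Cuffdiff and mm9. Their versions and the use of strand are not given in the sources used here. Another table deposited by the authors gives FPKM, a log2 ratio and a p-value for 398 genes, per the file headers. The 40 members, the gene lists and the 25% threshold were chosen with earlier results of these data known. Named with full values are the 5 highest and 5 lowest changes and the 5 highest mean FPKM.

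Symbols came from a RefSeq table of GRCm38.p6, which held 13030 of 13056 Entrez identifiers. The printed loci overlapped the GRCm38 gene for 99.7%, so coordinates follow GRCm38 although the notes name mm9. Starts are given 1 base higher than printed, which equals the GRCm38 start for 39.9% of genes, against 1.77% as printed.

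Genes under 1 FPKM in both libraries were left out of counts, and the pseudocount was 1 FPKM. Depth was not stated. Low FPKM values step in units of 1 fragment, and over 88 genes with 1 transcript of at least 1500 bases and values under 0.3 FPKM, 76.1% had ratios of small whole numbers within 0.2% at a depth ratio of 1.14, against 4.55% at other ratios. Library sizes and fragments per gene were derived from these steps with GENCODE transcript lengths, with no correction for fragment length, and are rough. At the chosen size 47.2% of fragment numbers came out whole within 0.05. The procedure was tested on simulated data. Of the 35 promoter windows, 29 matched the start of a GENCODE transcript in their direction and none in reverse. Alternatives changed the pseudocount, the filter, the scaling and the members used. Python 3.11.15, pandas 2.3.3, SciPy 1.17.1 and matplotlib 3.10.9 were used.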

Additional observations from a re-analysis of the deposited data

Results flagged for a closer look

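Features without a plain Entrez identifier, which entered no comparison above, lie at the printed loci of 11 of the 40 genes. There are 16 of them, of which 10 were higher and 6 lower in the OX40L-TG-APC library, with those under 1 FPKM included. Of the 16, 6 reached 1 FPKM in either library. All of those but n264921 at Cenpe (1.21 to 1.14 FPKM) were higher, against 29.8% of all such features of the table that reached 1 FPKM. Of the 6, 3 were also at least 25% higher. That compares with 13.8% of all 5097 such features of the table that reached 1 FPKM. At Aurkb the feature n290619 stood at 3.13 FPKM with WT APCs and 5.37 FPKM with OX40L-TG APCs. At Top2a the feature n267637 stood at 3.30 and 4.78 FPKM. At Kif4 the feature n295932 stood at 0.651 and 1.57 FPKM. The lowest ratio among the 16 was that of n278805 at Kif23, at 0.595 and 0.155 FPKM, and n284825 at Kif4 stood at 0.985 and 0.796 FPKM. Identifiers that start with n are not explained in the file. The identifiers of 2 of the 16 join an XLOC locus to the Entrez number of the gene itself, for Kif2c at 1.01 and 1.15 FPKM and for Prc1 at 0.403 and 0.443 FPKM, and these were not added to the levels of Kif2c and Prc1. With 1 library per condition the differences were not tested.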

How the results depend on the processing

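Pseudocounts of 0.1 and 5 FPKM, no filter and a filter of 5 FPKM kept all 40 genes higher and moved each log2 change by less than 0.5 of the width of its counting interval. The scaling mattered more. With the median ratio of genes over 5 FPKM set to 1, the median log2 change was 0.19, 4 genes were at least 25% higher, the summed ratio was 1.15, and Nuf2 turned to -0.0070. With equal totals these values were 0.14, 2 genes and 1.11, and Nuf2 turned to -0.063 and Incenp to -0.010. With the median ratio of the reference genes set to 1, an alternative chosen after seeing the data, they were 0.069, 0 genes and 1.05. Then Nuf2 (-0.13), Incenp (-0.079), Foxm1 (-0.058), Ttk (-0.058), Cdc25b (-0.048), Cenpe (-0.043), Mki67 (-0.037), Plk1 (-0.027), Cenpa (-0.015), Cdc25c (-0.010) and Cenpf (-0.0012) were lower. Restricted to the 21 members alone in their locus, 21 were higher and 7 were at least 25% higher, against 68.3% and 21.5% of all genes. Of these 21, 20 exceeded the all-gene median and the summed ratio was 1.24, with fewer genes by construction. No member reached 2-fold in either direction under any of these alternatives. Over all annotated genes, the pseudocount moved the 2-fold counts from 241 higher and 141 lower to 405 and 251 (0.1 FPKM) or 101 and 39 (5 FPKM). The authors' comparison table lists no member and gave no value. No paired analysis was possible because each condition has 1 library and no result comes from a test. Depth limits the low genes most: the interval of Cdc25c spans 1.05 to 1.32.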
